A study of Rattus norvegicus with 6 samples.

Results

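The lower flank is the stretch of rat chromosome 13 that lies within 1 Mb of the 4C viewpoint on the side of lower coordinates. It was taken from the deposited tables by position alone: fragments that start at or above 54570181 and at or below 55560538 on build rn5. That gave 238 EcoRI fragments, from chr13:54577282-55560538, of 794445 fragments in the 6 tables, or 0.0300%. Positions are given as in the tables, whose first interval starts at 0, so they may lie 1 base from those of a genome browser.

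The viewpoint is the promoter of a gene on chromosome 13 of cardiac endothelial cells. Cells of 2 rat strains were used. SS13BN libraries come from strain SS-13BN/Mcwi, a consomic strain with the Brown Norway (BN) chromosome 13 in an SS background, and SS libraries come from strain SS/JrHsdMcwi, the inbred Dahl salt-sensitive rat. All cells of both strains were at passage 2, were pooled from males and females, and were fixed for 10 min in 2% formaldehyde at room temperature. Each strain had 3 libraries, and the tables of replicate 3 list chromosome 13 at 0, which leaves SS13BN 1 and SS13BN 2 against SS 1 and SS 2. No label ties the libraries of a strain to separate animals or cultures, so p-values below reflect only how far these libraries vary, a spread that may be technical. Cell identity cannot be checked in these data, which hold contacts and no expression.

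A 4C experiment asks which parts of the genome lie close to 1 chosen site in the nucleus. Neighbouring chromatin is cross-linked, cut and ligated, so that fragments near the viewpoint become joined to it, and reads per fragment serve as a measure of contact. Contact is known to fall with distance along the chromosome, and chromosomes are known to fold into domains within which enhancers and promoters meet more often than across a domain border. A promoter can therefore show contact that drops gradually on one side and holds up over a longer stretch on the other. The SS rat develops hypertension on a high-salt diet, and the consomic strain is known to be protected from much of it. The comparison of the strains asks whether the BN origin of the promoter and its surroundings goes with other contacts.

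Within 1 Mb the deposited score of a fragment is its read number, centred and divided by a standard deviation, from which whole reads were recovered. The flank held 100413 reads in SS13BN 1, 76483 in SS13BN 2, 106731 in SS 1 and 202866 in SS 2. The median fragment had 232.5, 209.5, 234 and 559.5 reads in the same libraries, and SS 2 was the most deeply read. Reads of a PCR library are not independent molecules, so these numbers do not give the counting error of a fragment. To set libraries side by side, reads were scaled to a common total over the read-scored region around the viewpoint, chr13:52028242-58275224, without fragments centred within 10 kb of the viewpoint. These values are called scaled reads.

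Nearly every fragment of the flank was joined to the viewpoint in every library. At least 1 read was found for 236 of 238 fragments in SS13BN 1 (99.2%, 95% Wilson interval 97.0% to 99.8%) and for 237 in SS13BN 2. The SS libraries had reads on 236 fragments in SS 1 and on all 238 in SS 2. In percent, the captured share was 99.4 ± 0.297 in SS13BN and 99.6 ± 0.594 in SS (SD, n = 2 each; exact two-sided permutation p = 1). All 4 libraries had reads on 233 fragments, and no fragment lacked reads in 2 or more of them. With capture this near to complete, differences within the flank can be seen only in the read numbers. Wilson intervals cover counting error only, since reads of a PCR library are not independent molecules.

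Of the reads in the scored region, which leave out the rest of the genome, the flank held the larger part. Of the scored region's reads outside 10 kb, its fragments held 59.7% in SS13BN 1, 54.6% in SS13BN 2, 60.3% in SS 1 and 56.6% in SS 2. The upper flank, the same distance towards higher coordinates, held 25.6%, 22.6%, 26.1% and 26.3% in the same libraries. The lower flank has 238 fragments and the upper one 205 outside 10 kb. Per fragment, the lower flank had 2.01 times the mean reads of the upper flank in SS13BN 1, 2.08 times in SS13BN 2, 1.99 times in SS 1 and 1.86 times in SS 2. The mean log2 ratio of lower over upper flank was 0.99 ± 0.07 (SD, n = 4 libraries), positive in 4 of 4. An exact two-sided sign-flip permutation test gave p = 0.125, which is the smallest that 4 libraries allow.

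Reads did not fall steadily with distance in the lower flank. In 100 kb bands, the mean was 973 ± 110 scaled reads per fragment within 100 kb of the viewpoint and 471 ± 21.8 at 100 to 200 kb (SD, n = 4 libraries, here and for the other bands). It stayed at 469 ± 25.3 at 200 to 300 kb and 457 ± 115 at 300 to 400 kb. The next 3 bands were higher again, with 941 ± 185 at 400 to 500 kb, 1035 ± 105 at 500 to 600 kb and 656 ± 147 at 600 to 700 kb. The last 3 bands were the lowest, with 182 ± 62.8, 118 ± 28.1 and 89.9 ± 10.9 scaled reads from 700 kb to 1000 kb. Between neighbours in the order of band means, only the step to the band at 700 to 800 kb separated the libraries completely. Every band nearer than 700 kb had at least 365 scaled reads per fragment in every library, and every band beyond had at most 250. The order among the nearest band and those at 400 to 500 kb and 500 to 600 kb changed from library to library: the nearest band ranked first in SS13BN 1 and SS13BN 2, and the band at 500 to 600 kb ranked first in SS 1 and SS 2.

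**Figure D1:**
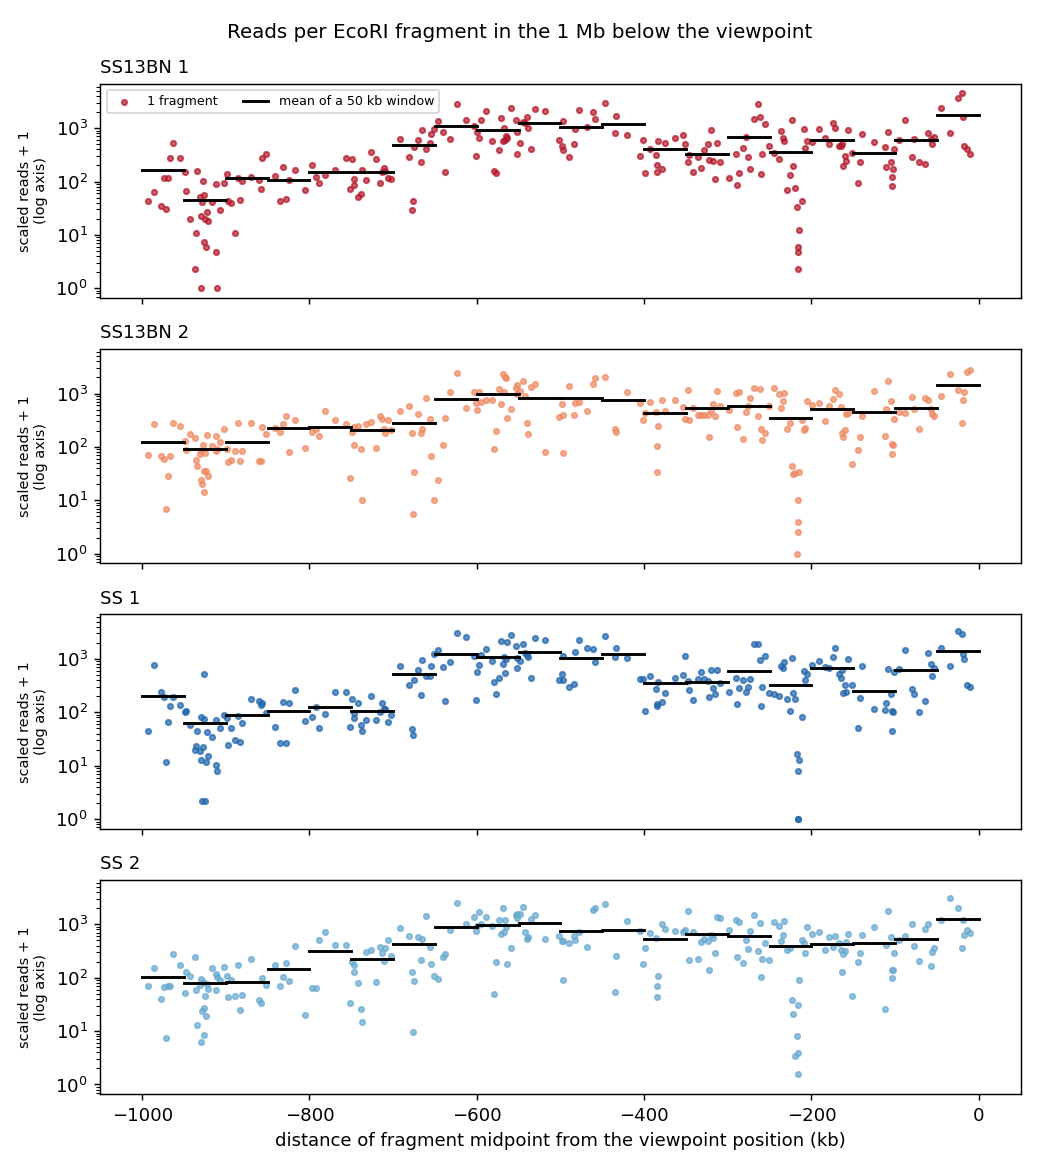
Scaled reads plus 1 of each fragment of the lower flank (log axis) against the distance of its midpoint from the viewpoint position in kb, 1 panel per library. Points are fragments and black bars are means of 50 kb windows; the bars between 700 and 400 kb below the viewpoint stand above those from 1000 to 700 kb in all 4 panels.

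Set against the upper flank at matched distance, the lower flank was higher in every band beyond 100 kb in all 4 libraries, and by the largest ratios at 400 to 700 kb. At 400 to 500 kb the lower flank had 8.37 times the mean scaled reads per fragment of the upper flank in SS13BN 1, 4.10 times in SS13BN 2, 11.6 times in SS 1 and 3.11 times in SS 2. At 500 to 600 kb the ratios ran from 4.72 to 6.96 and at 600 to 700 kb from 4.93 to 7.53 over the 4 libraries. Beyond 700 kb they ran from 1.51 to 2.59. At 300 to 400 kb they ran from 1.23 to 2.47, both ends in SS libraries. From 100 to 300 kb the ratios ran from 1.05 to 1.49, and within 100 kb the lower flank was higher in 1 library of 4. The zone from 400 to 700 kb was chosen with its values known, so no test is given for the bands. Spearman's rho between distance and reads, across fragments of 1 library, was -0.46, -0.43, -0.43 and -0.42 in the lower flank of SS13BN 1, SS13BN 2, SS 1 and SS 2. In the upper flank it was -0.75, -0.69, -0.70 and -0.65 in the same libraries. Fragments of 1 library share its depth and are not independent, so these values are a description.

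**Figure D2:**
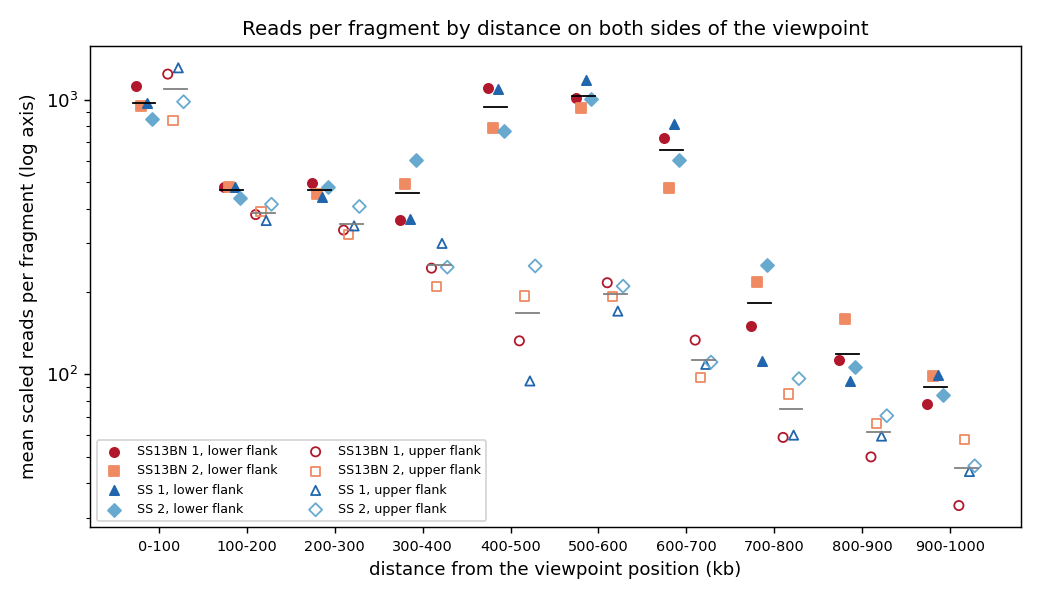
Mean scaled reads per fragment (log axis) in 100 kb bands of distance from the viewpoint position in kb, for the lower flank (filled, left in each band) and the upper flank (open, right). Symbols are libraries and short bars their means; at 400 to 700 kb the filled symbols stand 3.11 to 11.6 times above the open ones of the same library.

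The distribution of reads within the flank was also seen in the distance by which reads are split equally. That read-weighted median distance was 447 kb in SS13BN 1, 405 kb in SS13BN 2, 461 kb in SS 1 and 433 kb in SS 2. In the upper flank the same measure was 181 kb, 218 kb, 161 kb and 219 kb, below every value of the lower flank. By strain, the lower flank averaged 426 ± 29.6 kb in SS13BN and 447 ± 19.8 kb in SS (SD, n = 2 each). The difference, SS13BN minus SS, was -21.1 kb (exact two-sided permutation p = 0.667, where 2 against 2 libraries cannot go below 0.333).

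At the outer limit of the high stretch, levels changed between neighbouring fragments without a single clean step. The fragment chr13:54866532-54869750, centred 702 kb below the viewpoint, had 113 and 208 scaled reads in SS13BN 1 and SS13BN 2, against 88.2 and 257 in SS 1 and SS 2. The next one towards the viewpoint, chr13:54869751-54886429, had 617 and 469 in the SS13BN libraries, against 733 and 859 in the SS libraries. All 4 values of the inner fragment thus exceeded all 4 values of the outer one. The inner fragment is also longer, with 16679 bp against 3219 bp. Further in, at 677 kb, the fragment chr13:54892392-54893692 was low again, with 28.8 and 184 in SS13BN, against 47.7 and 129 in SS. These 3 fragments were chosen after their values were seen. In 50 kb windows the fall was spread over 2 steps. The mean per fragment at 600 to 650 kb was 2.21, 2.85, 2.42 and 2.06 times that at 650 to 700 kb in SS13BN 1, SS13BN 2, SS 1 and SS 2. That at 650 to 700 kb was in turn 3.25, 1.31, 4.98 and 1.93 times that at 700 to 750 kb. At the inner limit, the window at 400 to 450 kb was set against that at 350 to 400 kb. Its mean per fragment was 2.91, 1.70, 3.37 and 1.47 times as high in the same libraries. This step was larger in SS13BN 1 and SS 1 than in SS13BN 2 and SS 2. Per kb of fragment, the window at 400 to 450 kb had 119, 76.0, 123 and 79.7 scaled reads. The window at 350 to 400 kb had 87.5, 95.6, 78.1 and 116 per kb. Counted so, the step ran the other way in SS13BN 2 and SS 2.

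Longer fragments tended to have more reads. Lengths in the flank ran from 25 to 26645 bp with a median of 2555.5 bp, and rho between length and reads was 0.22, 0.32, 0.23 and 0.34 in SS13BN 1, SS13BN 2, SS 1 and SS 2. The 31 fragments under 500 bp had medians of 81.5, 73.8, 101 and 57.1 scaled reads. The 67 fragments of at least 5000 bp had medians of 344, 467, 354 and 532 scaled reads in the same libraries. Counted per kb of fragment, the band at 500 to 600 kb still had the highest mean, with 272 ± 27.4 scaled reads per kb (SD, n = 4). The bands at 400 to 500 kb and 600 to 700 kb then had 153 ± 30.1 and 132 ± 29.6 per kb, no higher than the 155 ± 8.37 per kb at 200 to 300 kb or the 196 ± 22.3 per kb within 100 kb. The 3 bands beyond 700 kb stayed lowest, with 40.7, 22.4 and 30.8 scaled reads per kb. The share of length in the band levels was not tested.

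Reads were unevenly divided among fragments. The 10 most-read fragments of a library held 22.3%, 19.1%, 20.8% and 18.0% of the flank's reads in SS13BN 1, SS13BN 2, SS 1 and SS 2. The 35, 41, 36 and 42 most-read fragments sufficed for 50% of them. In scaled reads, 68 fragments exceeded 1000 in at least 1 library and 9 did so in all 4. Of those 9, 7 were centred 447 to 624 kb below the viewpoint, 1 at 269 kb and 1 at 25.3 kb. In the upper flank, 4 fragments outside 10 kb exceeded 1000 in all 4 libraries, and all 4 lay within 100 kb.

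The fragment with the highest mean lay far from the viewpoint. It is chr13:54943593-54949064, 5472 bp long and centred 624 kb below. It had 2872 and 2452 scaled reads in SS13BN 1 and SS13BN 2, against 3074 and 2492 in SS 1 and SS 2, a mean of 2722 ± 301 (SD, n = 4). The libraries were close together there, and the strains overlapped. The fragment chr13:55111448-55134363, one of the longest with 22916 bp and centred 447 kb below, had 2893 and 2024 in SS13BN, against 2704 and 2352 in SS. The SS values lay between the SS13BN values there.

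Further fragments of the high stretch varied between libraries to different degrees. The fragment chr13:55039361-55040308, 530 kb below, had 2316 and 1484 scaled reads in SS13BN 1 and SS13BN 2, against 2460 and 1494 in SS 1 and SS 2. The fragment chr13:55025086-55026387, 544 kb below, had 1328 and 1685 in SS13BN, against 1942 and 2151 in SS. That at chr13:55106963-55110514, 461 kb below, had 2048 and 1510 in SS13BN, against 1531 and 1887 in SS. The first was higher in both libraries numbered 1 and the last showed no such order. In the second, both SS values exceeded both SS13BN values.

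The other 3 of the 8 highest fragments are neighbours close to the viewpoint, and they split by replicate number instead of by strain. The fragment chr13:55549478-55550600, 20.1 kb below, had 4476 scaled reads in SS13BN 1 and 279 in SS13BN 2, against 2905 in SS 1 and 363 in SS 2. It was the highest fragment of the flank in SS13BN 1, and near the flank's median in SS13BN 2 and SS 2. The adjoining fragment chr13:55540375-55549477 had 3698 and 1174 in SS13BN 1 and SS13BN 2, against 3342 and 1995 in SS 1 and SS 2. The next one outwards, chr13:55532383-55540374, ran the other way, with 808 and 2300 in the SS13BN libraries, against 726 and 3063 in the SS libraries. In all 3, the libraries numbered 1 fell together on one side and those numbered 2 on the other.

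**Figure D3:**
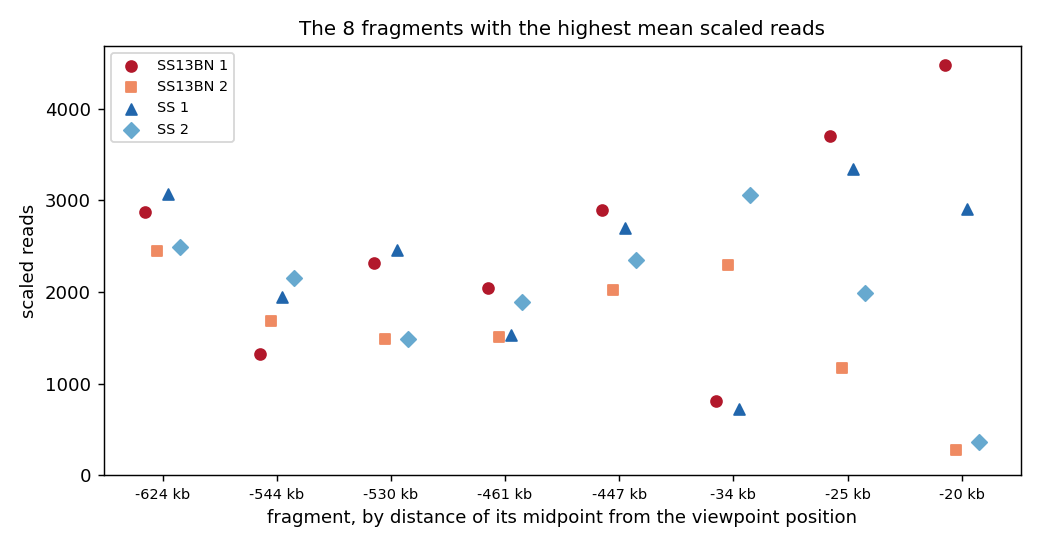
Scaled reads (linear axis from 0) in each library for the 8 fragments of the lower flank with the highest mean, ordered by the distance of their midpoint from the viewpoint position. The fragment 624 kb below lies between 2452 and 3074 in all 4 libraries, and the fragment 20.1 kb below lies at 4476 and 2905 in the libraries numbered 1 and at 279 and 363 in those numbered 2.

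Much of the flank split in the same way. Replicates 2 and 1 differed in the same direction in both strains in 179 of 238 fragments (75.2%), and the other 59 did not follow the split. The log2 changes between replicates 1 and 2 had r = 0.69 between the strains across the flank's fragments. Across all fragments of the scored region r was 0.28. The split was not particular to the lower flank by Spearman's rho of reads between libraries. In the upper flank rho was 0.89 for SS13BN 1 against SS 1 and 0.91 for SS13BN 2 against SS 2. There it was 0.71 between the SS13BN libraries and 0.73 between the SS libraries. In the lower flank the same pairs had 0.91, 0.91, 0.62 and 0.67. The counts in this paragraph cover the flank only. They were not made for other regions, so they do not set the flank apart. Between single libraries, the absolute log2 difference had a median of 1.03 for SS13BN 2 against SS13BN 1 and 0.95 for SS 2 against SS 1. It was 0.47 for SS13BN 1 against SS 1 and 0.44 for SS13BN 2 against SS 2. A difference of at least 4-fold was found in 53 fragments between the SS13BN libraries and in 49 between the SS libraries. Between strains it was found in 12 fragments for the libraries numbered 1 and in 7 for those numbered 2. Between strains with unlike numbers, it was found in 48 for SS13BN 1 against SS 2 and in 49 for SS13BN 2 against SS 1. In 5 fragments both strains had a change of at least 8-fold, and in all 5 it ran the same way. One of them was chr13:54916732-54920839, 651 kb below, with 981 and 9.0 scaled reads in SS13BN 1 and SS13BN 2, against 1212 and 105 in SS 1 and SS 2. Its neighbour chr13:54920840-54927220 had 1336 and 22.6 in SS13BN, against 1467 and 93.0 in SS. The fragment chr13:55346428-55348072, 223 kb below, had 1436 and 42.2 in SS13BN, against 1022 and 37.1 in SS. The remaining 2, chr13:54631299-54634314 and chr13:54659022-54661008, were higher in the libraries numbered 2. The first had 1.3 and 146 in SS13BN, against 19.1 and 243 in SS. The second had 0 and 61 unscaled reads in SS13BN, against 6 and 170 in SS. These 5 were picked for their values, and no label says what libraries with the same number share.

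At the near bound, the last fragment before the one that holds the viewpoint, chr13:55558354-55560538, had 327 and 2712 scaled reads in SS13BN 1 and SS13BN 2, against 299 and 697 in SS 1 and SS 2. SS13BN 2 stood far above the other 3 libraries there, and it did so as well in the adjoining fragment chr13:55554127-55558353, with 2523, against 401 in SS13BN 1, 330 in SS 1 and 795 in SS 2. That adjoining fragment was added after its values were seen. The fragment that holds the viewpoint, chr13:55560539-55570180, is listed at 0 and belongs to neither flank. At the far bound, the first fragment inside, chr13:54577282-54577452, had 42.6 and 70.8 in SS13BN, against 42.9 and 69.4 in SS. The first one outside, chr13:54568315-54577281, had 66.5 and 69.3 in SS13BN, against 44.1 and 48.2 in SS, so there was no step at this bound.

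Within the inner part of the flank, 1 short run of fragments was low in all 4 libraries. It consists of 5 neighbouring fragments, chr13:55352643-55356760, which span 4118 bp at 215 to 217 kb below the viewpoint. Together they had 43 and 31 reads in SS13BN 1 and SS13BN 2, against 29 and 224 in SS 1 and SS 2. None reached 100 scaled reads in any library. The highest value was 91.2, from 155 reads of SS 2 on chr13:55354443-55356760. The run was picked for its values. It was the longest such run by number of fragments, and the next longest, with 4 and 3 fragments, lay 928 to 931 kb and 889 to 898 kb below the viewpoint. The fragment chr13:55354016-55354228, in its middle, had 1 read in SS13BN 1 and 1 in SS13BN 2, against 0 in SS 1 and 1 in SS 2. It was the lowest of the flank. A little further out than the run lies the fragment chr13:55346428-55348072 described above, with over 1000 scaled reads in both libraries numbered 1. Of the 5 fragments, 3 are under 500 bp long, with 213, 131 and 83 bp, and the part of length in the low values was not tested. Of the 5 fragments of the flank that lacked reads in some library, 3 lie in this run and the other two, chr13:54640894-54641070 and chr13:54659022-54661008, lacked reads in SS13BN 1 and lie 929 and 910 kb below the viewpoint.

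**Figure D4:**
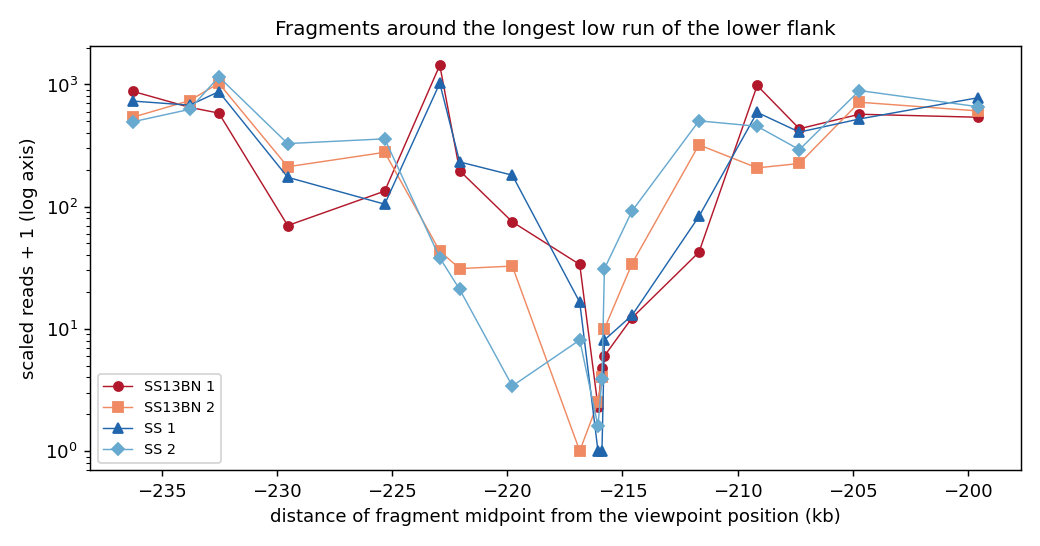
Scaled reads plus 1 (log axis) of the low run and its neighbours on either side, against midpoint distance in kb, with 1 line per library. The 5 fragments at 215 to 217 kb stay under 100 scaled reads in all 4 libraries, and at 223 kb the libraries numbered 1 stand at 1436 and 1022, the others at 42.2 and 37.1.

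The strains did not differ detectably in any part of the flank. In limma's test on log2(scaled reads + 1), run over 1360 fragments of the scored region, 0 passed an adjusted p of 0.05, or 0.00%. At an unadjusted p under 0.05 there were 9 of 1360, or 0.662%, and 1 of the 237 tested fragments of the flank, with SS13BN higher. Over all fragments tested, SS13BN was higher in 0.368% and lower in 0.294% at that level. One of the 238 members, the lowest, had a mean under 1 scaled read and was not tested. The median log2 difference, SS13BN minus SS, was -0.06 over the flank's fragments, with 103 above 0 and 134 below, and 0.02 over all those tested. The median half-width of the 95% interval was 1.85 on the log2 scale in the flank, before any adjustment for the number of fragments. The strains did not overlap in 23.2% of all fragments tested, and in 39 of 237 (16.5%) in the flank, of which SS13BN was higher in 23 and lower in 16. The corresponding shares over all fragments tested were 12.3% and 10.9%.

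The fragment with the smallest p in the flank was chr13:55458500-55458922, 423 bp long and 111 kb below the viewpoint. It had 436 and 158 scaled reads in SS13BN 1 and SS13BN 2, against 110 and 25.3 in SS 1 and SS 2. Both SS13BN values exceeded both SS values, with a log2 difference of 2.29 (SE 0.97) and a limma adjusted p of 1.0. It adjoins the longest fragment of the flank, chr13:55431855-55458499 with 26645 bp, which had 553 and 1135 in SS13BN, against 116 and 908 in SS. There the strains overlapped. The fragment chr13:54714695-54722117, 852 kb below, had 331 and 172 in SS13BN, against 96.5 and 73.5 in SS, a log2 difference of 1.49 (SE 0.81). The fragment chr13:55316615-55321241, 251 kb below, had 465 and 594 in SS13BN, against 226 and 214 in SS, a log2 difference of 1.25 (SE 0.71). Its SS libraries were close together, but neither fragment passed the test (limma adjusted p = 1.0 for both).

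Sums over 50 kb windows were less variable and gave tighter limits. Of 126 windows of the scored region, 0 passed a limma adjusted p of 0.05 (0.00%), and 2 (1.59%) had an unadjusted p under 0.05, none of them among the 20 of the flank. Log2 differences in the flank ran from -0.36 to 0.47 with a median of -0.01, 10 above 0 and 10 below. Their 95% intervals had a median half-width of 0.79. The strains were separated in 2 of 20 windows of the flank, both higher in SS13BN, and in 25.4% of all windows, where SS13BN was higher in 14.3% and lower in 11.1%. The first is the window nearest to the viewpoint, 0 to 50 kb, with 14178 and 11713 scaled reads in SS13BN 1 and SS13BN 2, against 11398 and 9941 in SS 1 and SS 2. SS13BN minus SS, this came to 0.28 in log2 (SE 0.26), with a limma adjusted p of 0.988. In this window each SS13BN library exceeded the SS library of its number, and the margin of the lowest SS13BN value over the highest SS value was small. In SS13BN 2, 2712 and 2523 of its scaled reads lay on chr13:55558354-55560538 and chr13:55554127-55558353, against 697 and 795 in SS 2. Without these fragments, the sum of SS13BN 2 would lie below that of SS 2. The other, at 850 to 900 kb, had 1392 and 1472 in SS13BN, against 1065 and 997 in SS, a log2 difference of 0.47 (SE 0.35; limma adjusted p = 0.988). The lowest difference, at 650 to 700 kb, was -0.36 (SE 0.36), with 5845 and 3297 in SS13BN, against 6261 and 5087 in SS, and the strains overlapped.

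**Figure D5:**
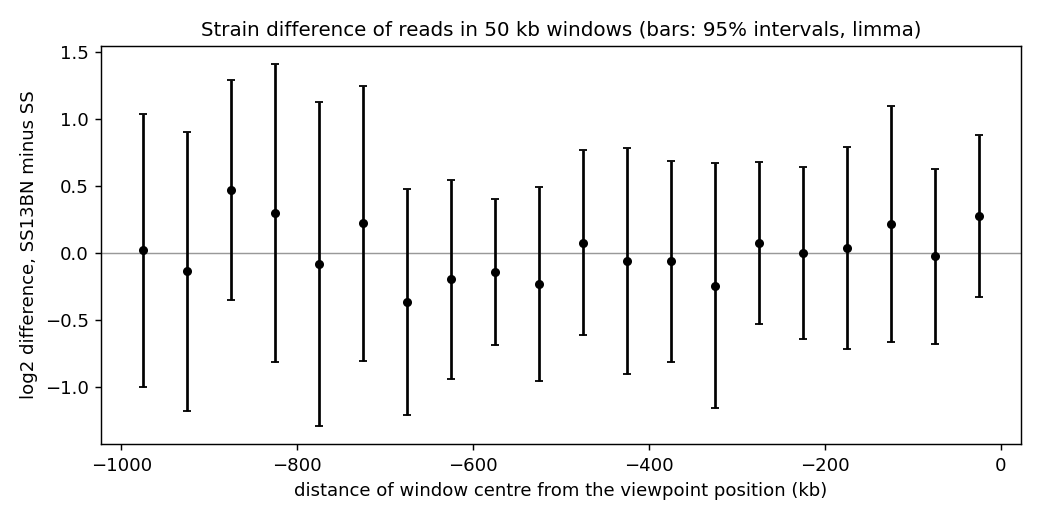
Log2 difference of summed scaled reads, SS13BN minus SS, in the 20 windows of 50 kb of the lower flank, against the distance of the window centre from the viewpoint position in kb. Points are limma estimates from the fit without a replicate block and bars their 95% intervals. Estimates lie between -0.36 and 0.47 and every interval of this fit includes 0.

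The share of the scored region's reads that lay in the flank was likewise close in the strains. It averaged 57.2% ± 3.58 in SS13BN and 58.4% ± 2.62 in SS (SD, n = 2 each). SS13BN minus SS was -1.26 percentage points (p = 0.667, exact permutation, two-sided), and 0.454 with 1 fragment of the upper side left out. That fragment, chr13:57407684-57425902, carried a score in SS13BN 2 that did not match the library's own mean and SD, and was raised to 9727 reads from the listed 4792. Within replicate number 1 the difference was -0.584 percentage points, and within number 2 it was -1.94. As a share of both flanks the lower one held 70.3% ± 0.534 in SS13BN and 69.0% ± 1.06 in SS (SD, n = 2 each; exact two-sided permutation p = 0.333, the smallest possible). On the log2 scale, lower over upper flank was 1.03 ± 0.04 in SS13BN and 0.94 ± 0.07 in SS, a difference of 0.09 with the same p.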

How the data were processed

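Fragment tables of 6 4C-seq libraries were used. Per the labels' protocols, chromatin was cut with EcoRI. Per the submitters' processing notes, the build was rn5 and CASAVA 1.8 was run. Aligner, read filtering and scoring program: not given in the sources used here. Each score the authors deposited near the viewpoint is a fragment's read number, centred on the mean of fragments with reads and divided by their SD. Reads were recovered from the spacing of the scores, taking the least-read captured fragment as 1 read. All values came within 0.05 of a whole read in SS13BN 1, SS 1 and SS 2, and 99.9% in SS13BN 2. In that library 1 score was raised, which brought the SD to the implied 353. Neighbouring fragments listed at 0 share a row and were separated with the other tables.

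The score is no count, so the test was limma 3.58.1 (R 4.3.3, intensity trend) on log2(scaled reads + 1), for a mean of at least 1 scaled read, with Benjamini-Hochberg adjustment over the whole scored region. Single values were compared by exact permutation tests. Named fragments were the 8 highest, the 3 fragments and windows with the smallest p, those at the bounds, those without reads and the longest. Others are said to be chosen for their values. Members, zones and lists were chosen with earlier results of these data known. Other steps used scipy 1.17.1, numpy 2.4.6, pandas 2.3.3 and matplotlib 3.10.9 under Python 3.11.15. Alternatives were other scalings, pseudocounts, filters and windows, the deposited score itself, a replicate block, left-out libraries and the raised fragment. The identity of the gene, gene annotation and sequences were not analysed here, since no genome of the build was used.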

Additional observations from a re-analysis of the deposited data

Results flagged for a closer look

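The tables of replicate 3 list chromosome 13 at 0, but their rows still differ in the lower flank. In the scored libraries, neighbouring fragments share a row where they lack reads: 2 fragments in 1 row in SS 1, and no such row in SS13BN 1, SS13BN 2 or SS 2. SS13BN 3 had 16 fragments of the flank in 5 shared rows, and SS 3 had 6 fragments in 2 shared rows. These values were singled out because they stand in tables that no comparison uses. In SS 3, 1 of these rows, chr13:55352643-55354359, lies in the low run 215 to 217 kb below the viewpoint, and so does chr13:55354016-55354442 in SS13BN 3. The other row of SS 3 and 3 of the other 4 rows of SS13BN 3 lie 911 to 936 kb below, and the last lies 737 to 742 kb below. Of the 301 fragment starts absent from chromosome 13 in SS 3, 298 lie in the scored region, and so do 231 of 232 in SS13BN 3. A fragment without reads between captured neighbours would leave no such trace, so these numbers are no capture rates. Whether shared rows mean missing reads in these 2 tables was not tested.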

How the results depend on the processing

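No fragment and no window of the flank passed an adjusted p of 0.05 under any alternative run. In the whole scored region, 1 window of 50 kb, outside the flank, passed with replicate block, and the counts with 1 library left out ran from 0 to 1 for windows and stayed at 0 for fragments. Leaving out SS13BN 1 or SS 1 gave the 1 window, in fits whose lone library is assumed to vary like the others. The median log2 difference of the flank's fragments ran from -0.10 to 0.07 over all alternatives, on either side of 0. With the replicate block, 14 fragments of the flank had an unadjusted p under 0.05, against 1 without it. The smallest adjusted p was 0.274, at chr13:55458500-55458922, where the half-width of the 95% interval was 1.27, against 2.14 without the block. Among windows of the flank, 1 had an unadjusted p under 0.05 with the block, at 0 to 50 kb (limma adjusted p = 0.430). Its log2 difference of 0.28 had a 95% half-width of 0.26, so that interval left out 0. Without the block the half-width was 0.60. Same-numbered libraries deviated together in the flank (r = 0.69 across the 238 fragments, 0.28 across the scored region), but share only a number, with 2 pairs. In the upper flank, too, libraries of the same number ranked fragments more alike than libraries of the same strain. The difference in the flank's share of reads, -1.26 percentage points, turned to 1.31 over reads of both flanks and to 0.454 without the raised fragment. It ran from -3.79 to 1.27 with 1 library left out, above 0 without SS13BN 2 or SS 1. A replicate block cannot change this difference, since each number has 1 library of each strain. With 1 library left out, the difference in median distance ran from -42.0 to -0.191 kb, that in captured share from -0.630 to 0.210 percentage points (above 0 without SS 2), and the log2 ratio of lower over upper flank from 0.96 to 1.02. Under other settings the captured share differed by -1.68 percentage points at 10 or more reads, and the log2 ratio was 1.21 per kb, 1.29 by median and 1.35 without fragments within 50 kb. The log2 ratio of reads per fragment at 400 to 700 kb over 100 to 400 kb, 0.92, moved to 0.51 when counted per kb of fragment. The log2 difference of the window at 650 to 700 kb ran from -0.78 to 0.0507 with 1 library left out, above 0 without SS13BN 2. With 2 libraries per strain, small strain differences were not detectable, and larger ones could be missed as well. In the flank the median half-width of the 95% interval was 1.85 in log2 for fragments and 0.79 for windows. A log2 difference of 2.29 at chr13:55458500-55458922 did not pass.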
